A study of Mus musculus with 6 samples.

Results

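The transcripts described are 33 genes of glucose metabolism: glucose transporters, the enzymes of glycolysis from hexokinase to pyruvate kinase, lactate dehydrogenase and lactate exporters, phosphoglucomutases, pentose phosphate enzymes and the pyruvate dehydrogenase E1 subunits. They were taken from a list of symbols, and 33 of 33 were found among the 26754 genes of each file. RNA came from tumours that B16 melanoma cells formed under the skin of female C57BL/6J mice, bought at 6 to 8 weeks of age, after magnetic selection of the cell suspension for CD8a. The groups are day 7 and day 14 after implantation, with 3 libraries each and no other treatment or genetic change, and the labels do not say whether replicates came from separate mice. P-values therefore measure only the spread between these libraries, which may be technical. Values are RPKM, reads in a gene divided by its length and by all reads in genes of that library.

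Glycolysis splits glucose into pyruvate and yields ATP without oxygen. Lactate dehydrogenase turns pyruvate into lactate, which monocarboxylate transporters carry out of the cell, and this regenerates the NAD+ that glycolysis needs. The pentose phosphate pathway branches off at glucose 6-phosphate and makes NADPH and ribose. Tumour cells and activated CD8+ T cells are both known for high glycolytic gene expression, and many glycolytic genes are known targets of the hypoxia-inducible factor HIF-1.

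Libraries held 6523019 to 9313078 reads in genes on day 7 and 11385106 to 13316522 on day 14. Replicates 1 and 2 of day 7 were nearly as close to each other as resampling of the same fragments would make them (median chi-square ratio 1.11 and mean 1.63, where 1 is sampling alone, against medians of 40.9 and 44.4 with replicate 3), so their mean was counted as 1 sample, giving n = 2 against n = 3. The labelled cell type is CD8+ T cell, and its defining markers were present but were not the most abundant cell type genes. Summed over 12 T cell genes the level was 523 to 542 RPKM on day 7 and 139 to 145 on day 14, and 8 of 11 tested genes fell. Summed over 9 melanocyte genes it was 5885 to 6084 RPKM and 10753 to 11757, and 4 of 9 rose, with none at 0 in either group. Macrophage markers summed to 354 to 462 RPKM and 708 to 724 (2 of 10 tested rose), NK markers to 140 to 187 and 21.1 to 23.2 (5 of 5 tested fell), and neutrophil markers to 12.7 to 17.4 and 49.99 to 65.3 (1 tested, not called, with Ngp at 0 throughout). Erythroid markers summed to 1654 to 2114 and 1782 to 2007 RPKM with 0 of 5 called, and fibroblast, endothelial, dendritic and B cell markers each to at most 13.9 RPKM in any library. The libraries are therefore mixtures, and which cells carried a glucose metabolism transcript was not tested. Fewer cells of a type and less RNA per cell cannot be told apart in such samples.

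Part of the glycolytic genes rose by day 14. Of the 33 genes, 29 had a mean of at least 20 CPM (reads scaled to the library total, not to length) and were tested, and 9 rose at an adjusted p under 0.05 in limma: the glucose transporter Slc2a1, and the enzymes Hk2, Gpi1, Aldoa, Tpi1, Pgk1, Eno1, Pkm and Ldha. No gene of the set fell by this test (4.68% of all tested genes did), and 20 tested genes were not called, 15 of them with a value above 0 and 5 below. In all, 24 of the 29 values were above 0 (82.8%, beside 61.2% of all tested genes). The 9 genes called higher are 31.0% of those tested, beside 3.51% of all 6691 tested genes called higher and 8.19% called in either direction. Abundant genes had smaller errors (SE 0.07 for Eno1 at 2823 CPM, 0.63 for Aldoc at 23.7 CPM). These shares were not matched for abundance. The median log2 fold change over the 29 genes was 0.52, beside 0.16 over all tested genes.

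The 3 day 14 libraries were all above the 3 day 7 libraries in 20 of the 29 tested genes (69.0%), against 31.6% of all tested genes. They were all below in 2, Slc2a3 and Hk3 (17.8% of all tested genes), and overlapped in 7. All 33 genes together took 1.03% to 1.06% of reads on day 7 and 1.43% to 1.502% on day 14.

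The calls depend in part on scaling. With median-of-ratios scaling the median of all tested genes moved from 0.16 to 0.02, the split of all calls from 235 higher and 313 lower to 138 higher and 421 lower, and 2.06% of tested genes were called higher. Hk2, Slc2a1, Eno1, Pkm and Ldha were then still called, and the median of the 29 genes was 0.38. Scaled to the 12 T cell genes, nearly every tested transcript was higher on day 14 (6354 of 6691 called higher, median 1.86), and so were 28 of the 29 genes.

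**Figure D1:**
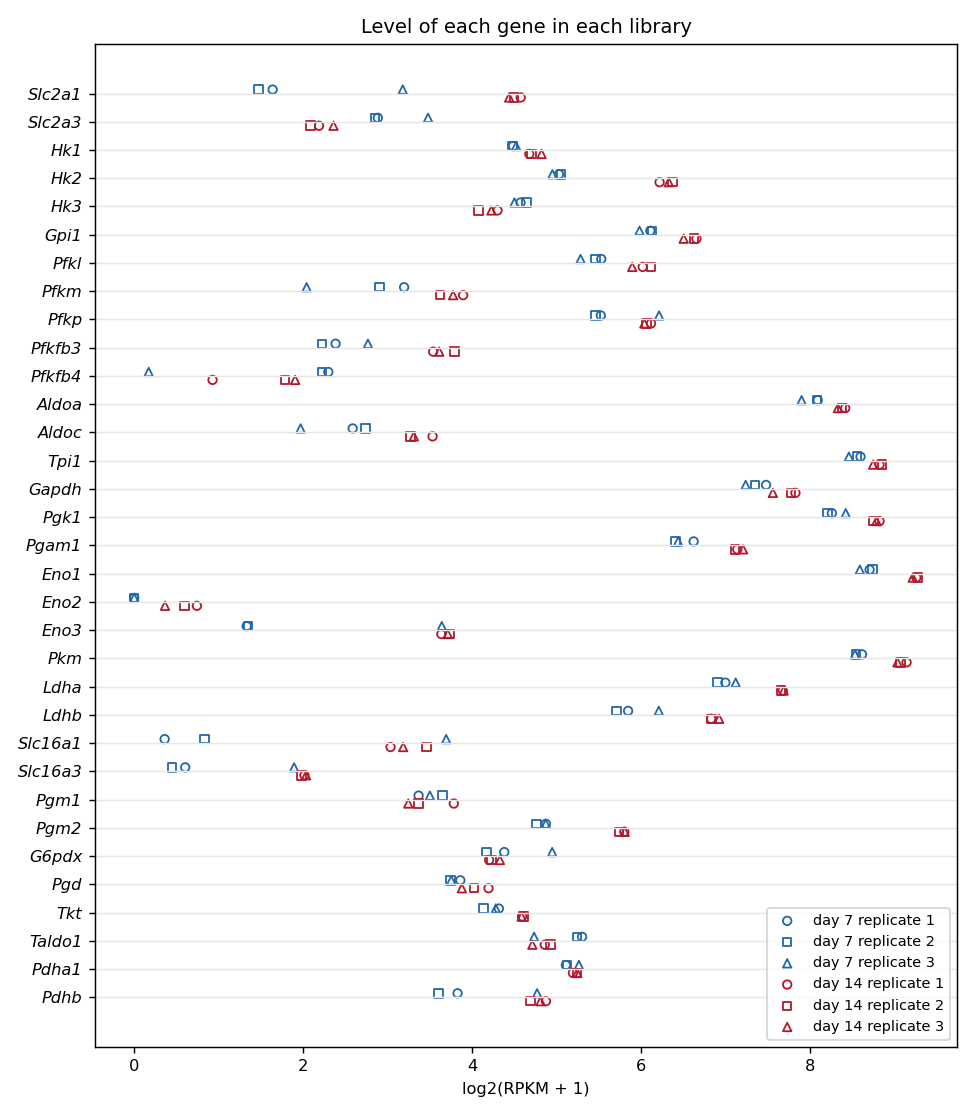
Level of each of the 33 genes in each library, as log2(RPKM + 1), with day 7 in blue, day 14 in red and 1 symbol per replicate number. Eno1, Pkm, Pgk1 and Tpi1 lie at the right with tight groups, while in 7 genes, Slc16a1 and Pfkp among them, the day 7 replicate 3 triangle reaches or passes the day 14 range and the other day 7 libraries do not.

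Promoter sequence is shown for 4 of the called genes, a transporter and 3 enzymes spread along the pathway. They were taken because the letters ACGTG, the core of the hypoxia response element, stand in the 250 bases before a RefSeq start (build GRCm38.p6). For Ldha the window with the most matches was taken, and the window of another RefSeq start (chr7:46847082) held none. Capitals mark ACGTG or its reverse complement CACGT, and CACGTG, an E-box, contains both. The files' Slc2a1 model begins 34 bases before the RefSeq start, so the last 30 bases are left off there, and the 4 bases printed beyond the model's start, 3 of them of the match, lie in its first exon. The Ldha stretch lies inside the files' Ldha gene, whose own start is 4329 bases upstream of the RefSeq start used, and in none of its exons. The Hk2 and Pgk1 stretches lie outside the files' gene models.
Slc2a1, chr4:119108495-119108714, plus strand: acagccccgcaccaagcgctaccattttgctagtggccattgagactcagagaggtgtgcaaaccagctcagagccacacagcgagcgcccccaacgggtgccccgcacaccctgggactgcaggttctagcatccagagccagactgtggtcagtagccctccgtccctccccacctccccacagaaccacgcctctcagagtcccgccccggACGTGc
Hk2, chr6:82774455-82774704, minus strand: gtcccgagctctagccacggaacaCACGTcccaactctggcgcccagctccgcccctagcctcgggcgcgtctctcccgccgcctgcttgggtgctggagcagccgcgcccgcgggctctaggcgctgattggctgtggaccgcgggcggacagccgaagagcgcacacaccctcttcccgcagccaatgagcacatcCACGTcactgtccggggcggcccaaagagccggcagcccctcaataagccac
Pgk1, chrX:106186850-106187099, plus strand: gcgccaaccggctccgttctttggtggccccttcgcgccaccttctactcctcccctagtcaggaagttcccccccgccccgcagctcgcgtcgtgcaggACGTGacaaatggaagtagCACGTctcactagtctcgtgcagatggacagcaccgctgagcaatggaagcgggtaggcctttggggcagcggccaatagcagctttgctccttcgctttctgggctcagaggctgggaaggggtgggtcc
Ldha, chr7:46845554-46845803, plus strand: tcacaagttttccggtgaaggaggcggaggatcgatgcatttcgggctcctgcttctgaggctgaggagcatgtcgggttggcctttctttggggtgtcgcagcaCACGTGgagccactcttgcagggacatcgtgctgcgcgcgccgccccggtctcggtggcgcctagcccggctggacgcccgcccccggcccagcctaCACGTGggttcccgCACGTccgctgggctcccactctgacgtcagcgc
The match begins 36 bases before the start in Slc2a1. Those in Hk2 begin 226 and 52 bases before it, and those in Pgk1 150 and 131 bases before it. In Ldha, E-boxes begin 145 and 48 bases before the start, and a further CACGT begins 34 bases before it.

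RefSeq windows from 250 bases before to 50 after a start were found for 32 of the 33 genes, 45 windows in all. ACGTG stood on either strand in 22 of the 45 (48.9%), beside 19.6% of all 32851 windows and 27.0% of the windows of tested genes. Counted by gene, 19 of 32 had it in any window (59.4%, beside 21.8% of all genes), among them 6 of the 9 called genes. The share by gene was not limited to tested genes, nor matched for the number of windows per gene. CACGTG was in 4 windows (8.9%, beside 7.15% of all). A match describes the letters only, and binding was not measured.

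Glucose uptake. Slc2a1 and Slc2a3 encode the glucose transporters GLUT1 and GLUT3. Slc2a1 (chr4:119108711-119137983) stood at 2.11, 1.78 and 8.05 RPKM in day 7 replicates 1, 2 and 3 and at 22.8, 21.5 and 20.6 on day 14. All day 14 libraries were above all day 7 libraries, and day 7 replicate 3 lay between the other day 7 libraries and day 14. The log2 fold change was 2.13 (SE 0.60, adjusted p = 0.0187), the largest of the 29, from 58 to 184 reads per day 7 library. With a pseudocount of 0.1 the value was larger, 2.41, but so was its error (SE 0.84), and the call was lost (adjusted p = 0.0786). Without day 7 replicate 3 the value was 2.94. Leaving that library out leaves 1 day 7 sample and no spread between day 7 samples, so values without p are given for it. An antisense gene, Gm12868, shares 105 exon bases with Slc2a1 and was at 0 in the day 7 libraries and at 1.98 to 5.27 RPKM on day 14.

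Slc2a3 had a value below 0 and did not pass the test. It stood at 6.37, 6.195 and 10.1 RPKM on day 7 and 3.55, 3.24 and 4.13 on day 14, with no overlap, and its log2 fold change was -0.96 (SE 0.37, adjusted p = 0.109), or 0.62 when scaled to the T cell genes. It was called lower with the 6 libraries counted singly (-0.86, adjusted p = 0.0225) and with limma-voom on recovered reads (-0.98, adjusted p = 0.0304). A share of the summed RPKM within a library does not depend on scaling. Slc2a1 made up 24.9%, 22.3% and 44.3% of the pair on day 7 and 86.5%, 86.9% and 83.3% on day 14, so Slc2a3 was the more abundant of the pair in every day 7 library and Slc2a1 in every day 14 library.

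Hexokinases. Hexokinase traps glucose as glucose 6-phosphate, and Hk2 is the inducible isozyme. Hk2 (chr6:82725025-82774454) stood at 31.6, 32.1 and 29.9 RPKM on day 7 and 73.3, 81.6 and 79.2 on day 14, close together within each day. It rose by a log2 fold change of 1.31 (SE 0.23, adjusted p = 0.0001) and was called in all 15 alternative settings run.

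Hk1, the broadly expressed isozyme, was at 21.4, 21.3 and 21.9 RPKM on day 7 and 24.5, 24.97 and 27.2 on day 14 (log2 fold change 0.23, adjusted p = 0.618). Hk3, an isozyme known from myeloid cells, was at 22.8, 24.0 and 21.6 and at 18.7, 15.8 and 17.7 (log2 fold change -0.35, adjusted p = 0.568, and 1.45 when scaled to the T cell genes). Neither passed the test. Within the family, the Hk2 share went from 40.7% to 41.7% on day 7 to 62.9% to 66.7% on day 14. The Hk3 share went from 29.4% to 31.0% to 12.9% to 16.02%, and the Hk1 share from 27.5% to 29.9% to 20.4% to 21.9%, none of the 3 overlapping between days. Macrophage markers, measured in the same libraries, were higher on day 14 by a ratio of 1.79 in their sum.

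**Figure D2:**
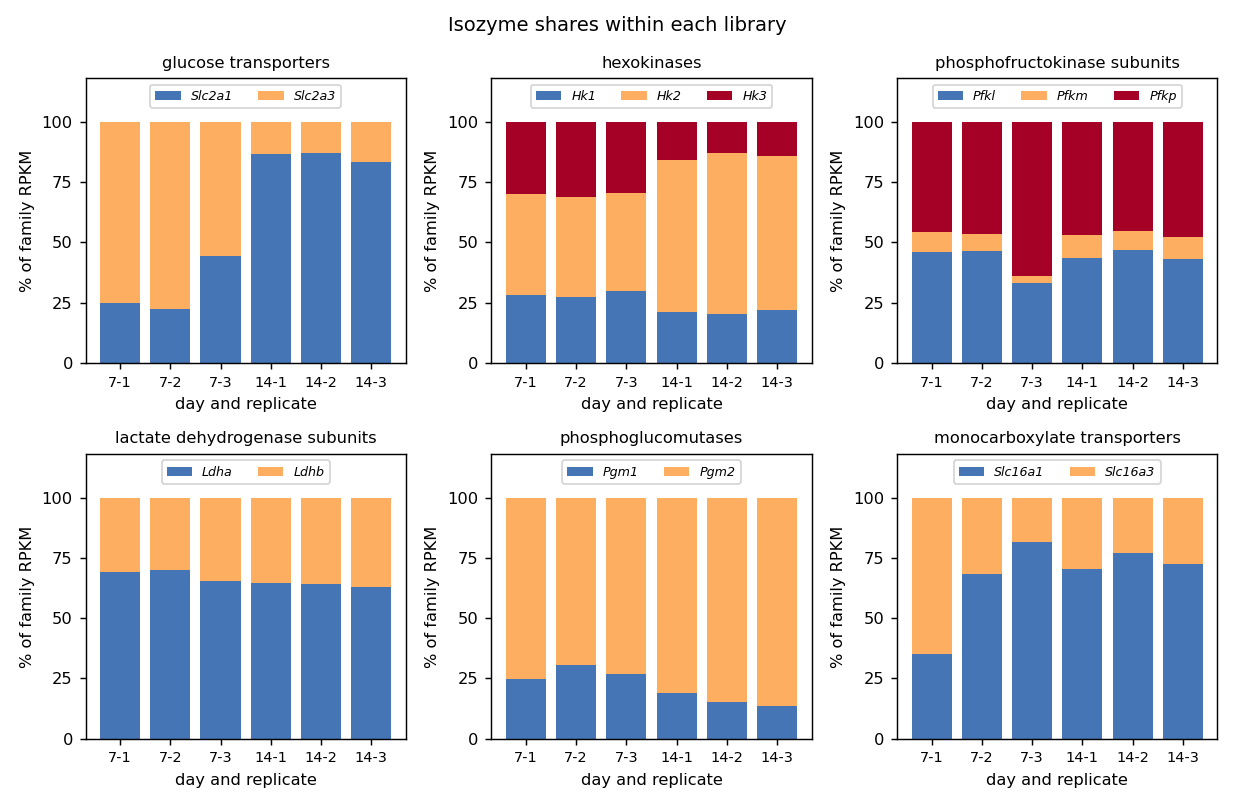
Share of each isozyme in the summed RPKM of its family, in percent, for 6 families with 1 stacked bar per library (day and replicate number below). Slc2a1 takes 22.3% to 44.3% of the transporter pair on day 7 and 83.3% to 86.9% on day 14, Hk2 goes from about 41% to 62.9% or more, and the phosphofructokinase bars overlap between days.

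Upper glycolysis after hexokinase. Gpi1, which converts glucose 6-phosphate to fructose 6-phosphate, was at 67.9, 68.8 and 62.1 RPKM on day 7 and 99.6, 97.6 and 89.6 on day 14, and rose by 0.54 on the log2 scale (SE 0.16, adjusted p = 0.0226). Without day 7 replicate 3 the value was 0.48. Gpi1 was not called with median-of-ratios scaling (0.40, adjusted p = 0.135) or with the variance trend fitted on RPKM (adjusted p = 0.188). It shares 741 exon bases with the antisense gene Gm26762, which was at 5.16 to 18.6 RPKM on day 7 and 11.3 to 14.3 on day 14.

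Phosphofructokinase catalyses the committed step, and none of its 3 subunit genes passed the test. Pfkl, the liver-type subunit, was at 45.1, 42.9 and 37.9 RPKM on day 7 and 63.7, 68.3 and 58.4 on day 14 (log2 fold change 0.62, adjusted p = 0.112). Pfkp, the platelet-type subunit, was at 44.9, 43.0 and 73.0 and at 68.3, 65.8 and 64.6 (log2 fold change 0.22, adjusted p = 0.42). For Pfkp, day 7 replicate 3 was above every day 14 library and replicates 1 and 2 were below them. Without replicate 3 the log2 fold change was 0.58. Pfkm, the muscle-type subunit, had means of 5.21 and 12.6 RPKM (log2 fold change 1.21, adjusted p = 0.262, or 0.71 without day 7 replicate 3). Their shares overlapped between days, with Pfkp at 45.8% to 64.1% on day 7 and 45.3% to 47.6% on day 14.

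The PFKFB enzymes set the level of fructose 2,6-bisphosphate, an activator of phosphofructokinase. Pfkfb3 was at 4.22, 3.66 and 5.80 RPKM on day 7 and 10.6, 12.8 and 11.2 on day 14, apart between days but short of the threshold (log2 fold change 1.11, SE 0.51, adjusted p = 0.198). Pfkfb4 did not have enough reads to be tested, and its libraries did not separate by day. It was at 3.91, 3.66 and 0.13 RPKM on day 7, the last from 4 reads, and at 0.90, 2.45 and 2.74 on day 14.

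Aldolase cleaves fructose 1,6-bisphosphate and triose phosphate isomerase interconverts the products. Aldoa was at 271, 269 and 237 RPKM on day 7 and 340, 331 and 320 on day 14, and rose by 0.38 (SE 0.08, adjusted p = 0.0006). Tpi1 was at 385, 374 and 350 and at 451, 460 and 428, and rose by 0.29 (SE 0.07, adjusted p = 0.0053), the smallest rise called. Without day 7 replicate 3 the values were 0.29 and 0.23. Both calls were lost with median-of-ratios scaling (0.23 and 0.14, adjusted p = 0.0606 and 0.267) and with the variance trend on RPKM (adjusted p = 0.17 and 0.229). That of Tpi1 was also lost without weights (adjusted p = 0.0622). Aldoc, the brain-type aldolase, had means of 4.12 and 9.37 RPKM (log2 fold change 1.05, adjusted p = 0.346) and was 1.21% to 2.06% of the aldolase transcripts on day 7 and 2.55% to 3.01% on day 14.

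Lower glycolysis. From glyceraldehyde 3-phosphate to pyruvate the enzymes Gapdh, Pgk1, Pgam1, enolase and Pkm generate NADH and ATP. Eno1 (chr4:150236721-150248879), the main enolase gene, was the most abundant transcript of the set, at 415, 425 and 383 RPKM on day 7 and 610, 619 and 592 on day 14. It rose by 0.60 (SE 0.07, adjusted p = 4.54e-08), the smallest p of the 29. Pkm (chr9:59656368-59679375), which makes pyruvate and ATP, was at 390, 372 and 368 RPKM and at 563, 534 and 522, a rise of 0.52 (SE 0.07, adjusted p = 3.80e-07). In both genes the gap between days was wider than the range within either day, and both were called in all 15 alternative settings. Pkm shares 767 exon bases with the same-strand model RP23-320D23.6 (21.9 to 25.8 RPKM on day 7, 38.8 to 48.9 on day 14), and its M1 and M2 splice forms are not separated by a value per gene.

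Pgk1 (chrX:106187100-106203699), the first ATP-generating enzyme, was at 305, 294 and 341 RPKM on day 7 and 450, 428 and 439 on day 14, with a rise of 0.46 (SE 0.11, adjusted p = 0.0062). With median-of-ratios scaling the value was 0.31, not called (adjusted p = 0.0945). The call was also lost with the variance trend on RPKM (adjusted p = 0.0751). Gapdh, often used as a reference gene, was at 177, 161 and 150 and at 226, 218 and 187, apart between days but just above the threshold (log2 fold change 0.39, adjusted p = 0.0518). Pgam1 had means of 88.0 and 141 RPKM (log2 fold change 0.67, adjusted p = 0.09). Related copies leave Pgk1 and Pgam1 uncertain, since Pgk1-rs7 (9.06 to 14.3 RPKM on day 7, 17.9 to 24.1 on day 14) and Pgam1-ps2 (35.1 to 46.7 and 61.1 to 65.0) are counted as genes of their own. Eno1b, a copy of Eno1, was at 3.66 to 13.6 RPKM on day 7 and 4.08 to 7.10 on day 14.

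The tissue-restricted enolases were too low to be tested. Eno2, the neuronal form, was listed at 0 in every day 7 library and at 0.29 to 0.67 RPKM on day 14. Eno3, the muscle form, was at 1.52, 1.54 and 11.5 RPKM on day 7 and 11.4 to 12.3 on day 14, so day 7 replicate 3 lay within the day 14 range.

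**Figure D3:**
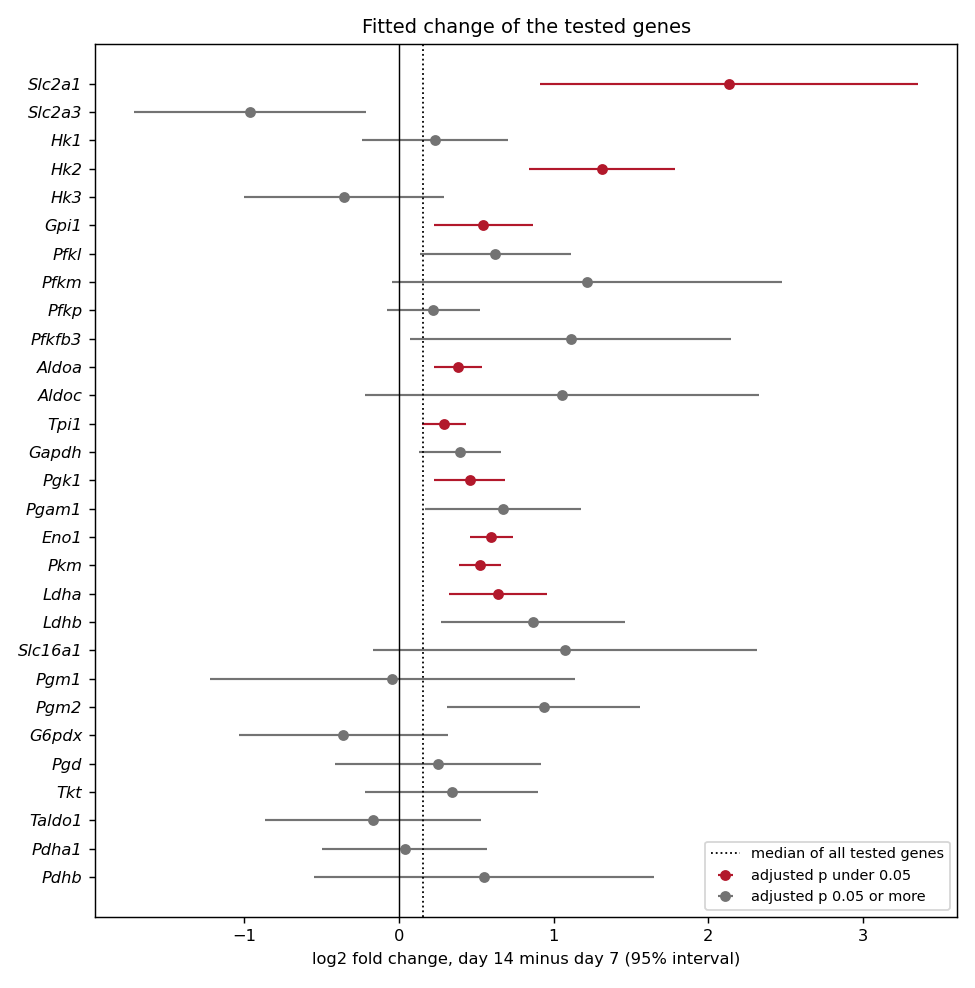
Log2 fold change, day 14 minus day 7, of the 29 tested genes in the limma fit, with 95% intervals, red where the adjusted p was under 0.05. The solid line is 0 and the dotted line the median of all tested genes (0.16). The 9 red points lie to the right of both lines, and the intervals of Eno1 and Pkm are the narrowest together with those of Tpi1 and Aldoa.

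Lactate. Ldha encodes the muscle-type subunit of lactate dehydrogenase and Ldhb the heart-type subunit. Ldha (chr7:46841475-46855627) was at 127, 119 and 138 RPKM on day 7 and 203, 201 and 205 on day 14, and rose by 0.64 (SE 0.16, adjusted p = 0.0053), called in all 15 alternative settings. Ldhb was at 56.4, 51.3 and 72.8 and at 112, 113 and 120, a larger value with a larger error (log2 fold change 0.87, SE 0.29, adjusted p = 0.0611). Ldhb was 30.2% to 34.6% of the pair on day 7 and 35.6% to 37.0% on day 14, so Ldha remained the more abundant subunit transcript in every library.

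The lactate exporters were low, and in both day 7 replicate 3 differed from the other day 7 libraries. Slc16a1, which encodes MCT1, was at 0.28, 0.78 and 11.9 RPKM on day 7 and 7.18, 9.98 and 8.08 on day 14. Day 7 replicates 1 and 2 rested on 10 and 32 reads and replicate 3 on 344. Its log2 fold change was 1.07 (adjusted p = 0.324), and without replicate 3 it was 2.61.

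Slc16a3, which encodes MCT4, was too low to be tested, at 0.52, 0.36 and 2.71 RPKM on day 7 and 3.04, 2.95 and 3.09 on day 14. The days did not overlap, though day 7 replicate 3 was near the day 14 level. Among day 7 libraries, replicate 3 also had the highest NK marker sum (187 RPKM, against 140 and 148) and the lowest sums of macrophage markers (354 RPKM, against 462 and 435) and T cell genes (523 RPKM, against 542 and 528). Of the CD8 chains, Cd8a was highest there (42.3 RPKM, against 17.3 and 16.4) and Cd8b1 lowest (123 RPKM, against 148 in each of the others). Whether these differences bear on the exporters was not tested. Bsg, the chaperone that carries MCT1 and MCT4 to the cell surface, was far more abundant, at 430, 407 and 409 RPKM on day 7 and 536, 567 and 573 on day 14. It rose by 0.43 (SE 0.11, adjusted p = 0.0077), and without day 7 replicate 3 the value was 0.41. The call was lost with median-of-ratios scaling (0.28, adjusted p = 0.12) and with the variance trend on RPKM (adjusted p = 0.0616).

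Glucose phosphate interconversion and glycogen. Phosphoglucomutase links glucose 6-phosphate to glucose 1-phosphate. In the files' naming Pgm2 is the gene on chr4 (chr4:99929414-99987294), which RefSeq calls Pgm1, and Pgm1 the gene on chr5, which RefSeq calls Pgm2. Pgm2 had means of 27.7 and 53.9 RPKM and a log2 fold change of 0.94 just above the threshold (SE 0.31, adjusted p = 0.0522). Pgm1 had means of 10.4 and 10.2 RPKM (log2 fold change -0.04, and 1.66 when scaled to the T cell genes). Ugp2, which turns glucose 1-phosphate into UDP-glucose for glycogen and other sugars, was at 46.6, 45.7 and 54.7 RPKM and at 100.3, 111 and 98.0, and rose by 1.02 (SE 0.26, adjusted p = 0.0069). It was the 1 gene called of 7 tested in the glycogen list (3.51% of all tested genes were called higher). The list's median was 0.87, beside 0.16 for all tested genes, and its values ran from -0.93 (Gyg) to 1.04 (Gbe1), both named after their values were seen.

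Pentose phosphate pathway. No gene of this branch passed the test, beside 8.19% of all tested genes called in either direction. The branch is too small for a count of 0 to set it apart. The summed RPKM of its 4 listed enzymes was 82.6 to 90.6 on day 7 and 80.9 to 85.7 on day 14. G6pdx, the entry enzyme that makes the first NADPH, was at 19.8, 17.0 and 29.8 RPKM on day 7 and 17.4, 17.8 and 19.1 on day 14 (log2 fold change -0.36, 95% interval -1.04 to 0.32, and 1.44 when scaled to the T cell genes). Day 7 replicate 3 was the highest library, and without it the value was -0.03. Tkt, a transketolase of the branch's return to glycolysis, was at 18.9, 16.6 and 18.4 and at 23.1, 23.3 and 23.0 (log2 fold change 0.34, 95% interval -0.22 to 0.90). Pgd, the second NADPH-producing enzyme, had means of 12.7 and 15.4 RPKM (0.25, interval -0.41 to 0.92). Taldo1, the transaldolase, had means of 31.6 and 27.5 RPKM (-0.17, interval -0.87 to 0.53, or -0.44 without day 7 replicate 3, and 1.66 when scaled to the T cell genes). For Pgd and Tkt the intervals include the values of Eno1 and Pkm, and for Taldo1 the interval includes that of Pkm. Changes of that size are therefore not excluded for these genes. The interval of G6pdx does not reach either value. It rests on 2 day 7 samples and on the scaling, so no exclusion is drawn from it. Of the branch's other genes 2 were tested and none was called, Rpia at -0.80 (-1.36 without day 7 replicate 3, and 0.88 when scaled to the T cell genes) and Rpe at 0.47.

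Summed levels put the branches side by side. The ratio of summed RPKM, day 14 to day 7, was 1.32 for the 10 upper glycolysis genes (867 to 1145), 1.44 for the 7 lower glycolysis genes (1350 to 1949), 1.64 for the 4 lactate genes (201 to 329) and 0.973 for the 4 pentose phosphate genes (86.4 to 84.1). The sums are carried by their most abundant members and were not tested.

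**Figure D4:**
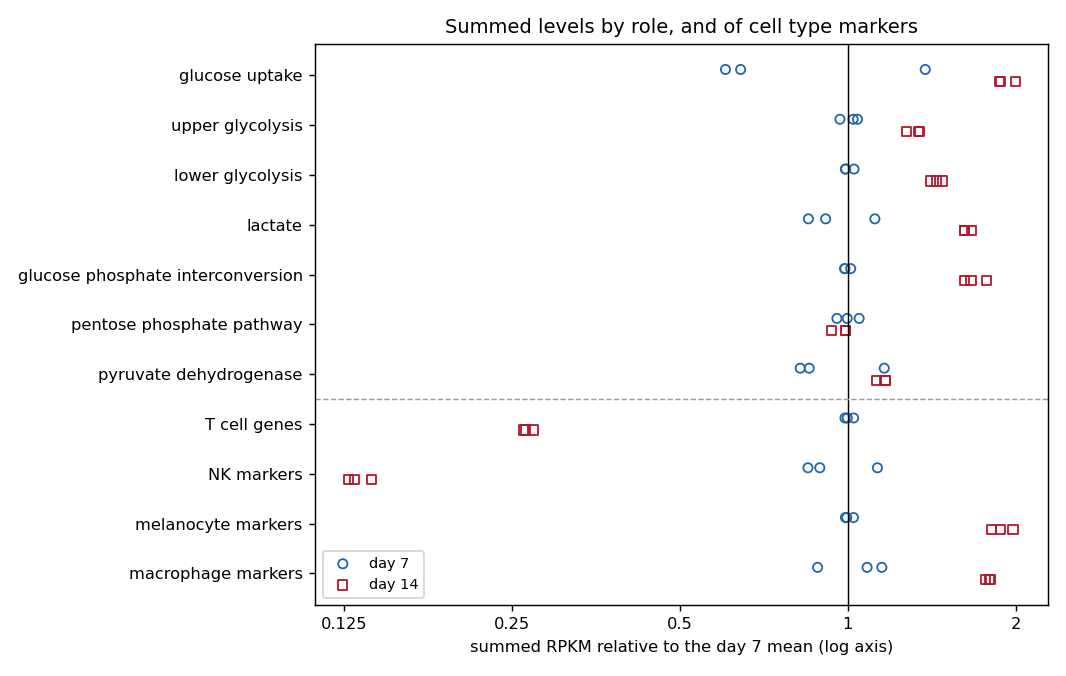
Summed RPKM per library relative to the day 7 mean, on a log axis, for 7 groups of the 33 genes and, below the dashed line, for cell type marker lists. Every day 14 library lies above every day 7 library for uptake, upper and lower glycolysis, lactate and interconversion, the pentose phosphate points overlap, and T cell and NK markers lie far to the left on day 14 while melanocyte and macrophage markers lie to the right.

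Pyruvate entry into mitochondria. Pdha1 and Pdhb encode the E1 subunits of pyruvate dehydrogenase, which turns pyruvate into acetyl-CoA. Pdha1 was at 33.5, 33.8 and 37.4 RPKM on day 7 and 35.5, 36.8 and 36.8 on day 14, overlapping (log2 fold change 0.04, 95% interval -0.50 to 0.57, and -0.11 with median-of-ratios scaling). Pdhb had means of 19.2 and 26.7 RPKM (0.55, adjusted p = 0.614), with day 7 replicate 3 inside the day 14 range, and without it the value was 1.07. Of 6 further genes tested for pyruvate entry none was called. Pdk1, a kinase that switches pyruvate dehydrogenase off, was at 4.45, 4.00 and 3.86 RPKM and at 12.01, 12.3 and 14.5 (log2 fold change 1.46, adjusted p = 0.09), and Pdk3 had a value of 0.86 (adjusted p = 0.44), or 0.19 without day 7 replicate 3. Of the 16 citric acid cycle genes, all tested, 0 were called, beside 8.19% of all tested genes called in either direction. With lists this small, a count of 0 does not set pyruvate entry or the cycle apart from all tested genes. The cycle genes had a median of 0.23 beside 0.16 for all genes. Their smallest p belonged to Idh3a (0.55, adjusted p = 0.244) and Mdh2 (0.39, adjusted p = 0.314). Without day 7 replicate 3 these were 1.02 and 0.69. Both were called with the 6 libraries counted singly (0.71 and 0.49, adjusted p = 0.0365 and 0.0334), which takes the near-identical day 7 replicates 1 and 2 as separate samples. Both were also called with limma-voom on recovered reads (0.76 and 0.52, adjusted p = 0.0328 each). The only other setting that called them was T cell scaling.

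HIF targets and regulators. Of 13 tested HIF target genes that are not glycolytic, 6 rose and none fell (3.51% of all tested genes were called higher), with a median log2 fold change of 1.10. Vegfa, an angiogenic growth factor, was at 36.5, 41.1 and 60.9 RPKM on day 7 and 173, 172 and 177 on day 14 and rose by 1.82 (SE 0.22, adjusted p = 1.19e-07). Car9, a carbonic anhydrase of acid handling, was at 8.39, 5.92 and 7.05 and at 47.5, 45.3 and 41.7 and rose by 2.50 (SE 0.60, adjusted p = 0.0042). The call was lost with a pseudocount of 0.1 (adjusted p = 0.0546), and without day 7 replicate 3 the value was 2.49. Bnip3, a mitophagy receptor, rose by 1.07 (adjusted p = 0.0047) and Ero1l, an oxidase of protein folding, by 1.10 (adjusted p = 0.0029). P4ha2 (adjusted p = 0.0399) and Mxi1 (adjusted p = 0.0324) were the others called, and neither was called with median-of-ratios scaling. P4ha2 was at 0.36, 0.28 and 5.65 RPKM on day 7 and 9.84, 9.74 and 12.6 on day 14. Among the tested regulators, Hif1a had means of 70.7 and 74.1 RPKM (0.08, adjusted p = 0.834) and did not pass the test. Nor did Myc, with means of 8.01 and 8.48 (0.07, adjusted p = 0.962). Epas1, another HIF gene, was too low to be tested, at 0.19, 0.12 and 0.12 RPKM on day 7 and 1.04, 0.90 and 0.38 on day 14. Hif1a, Myc and Epas1 were named after their values were seen.

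Txnip, which restrains glucose uptake, fell, the 1 gene called of 8 tested regulators (4.68% of all tested genes were called lower). It was at 26.4, 26.3 and 50.2 RPKM on day 7 and 18.9, 16.6 and 15.97 on day 14 (log2 fold change -1.05, SE 0.30, adjusted p = 0.0186), or 0.78 when scaled to the T cell genes. Without day 7 replicate 3 the value was -0.60. The call was lost without weights (adjusted p = 0.058) and with the variance trend on RPKM (adjusted p = 0.0735). Of 3 other glycolysis genes tested none was called, beside 8.19% of all tested genes called in either direction. Bpgm was at 0.63 (adjusted p = 0.408, or 0.25 without day 7 replicate 3) and Tigar at 0.25 (adjusted p = 0.852).

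The makeup of the libraries also differed between the days. Melanocyte markers were higher on day 14 by a ratio of 1.89 in their sum and macrophage markers by 1.79, while the T cell gene sum had a ratio of 0.267. The melanocyte gene Dct alone was at 4431 to 4726 RPKM on day 7 and 8577 to 9681 on day 14. Their part in the glycolytic differences was not tested. Mitochondrially encoded genes took 8.602% to 8.82% of reads on day 7 and 5.05% to 5.85% on day 14. The gene Gm10925 alone took 4.81% to 5.57% on day 7 and 2.33% to 2.43% on day 14. Both bear on every RPKM through the library total.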

How the data were processed

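RNA-seq was available for 6 libraries, labelled as poly-A RNA from CD8+ T cells of B16 tumours, made with a stranded kit carrying molecular identifiers, per the labels' protocols. The authors deposited RPKM per gene with gene length, per the file headers. Tools listed in the submitters' processing notes are Trimmomatic 0.36, Subread 1.5.1 and featureCounts, with the build GRCm38. Which aligner and strand setting were used, and whether identifiers were, is not given in the sources at hand, so overlapping genes are uncertain.

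RPKM times length times the library total gave whole reads for 100% of genes (tolerance 0.001), mostly even at low counts, so 2 reads stand for 1 fragment. limma 3.58.1 in R 4.3.3 was fitted to log2(RPKM + 1) of the 6691 genes averaging at least 20 CPM across the 5 samples (day 7 replicates 1 and 2 averaged), with day as the only term, an empirical Bayes trend and per-day precision weights from a loess of variance on mean CPM (span 0.3, floor 0.005). P-values were adjusted over all tested genes by Benjamini and Hochberg's method, and calls were made under 0.05. Fold changes on this scale understate low genes. The script was also run on simulated reads with known changes. These held no shift in cell makeup between the days, so they do not test the choice of scaling.

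The exact form of the variance trend was not fixed in advance. It was chosen out of 100 versions because its counts over all genes matched those of an earlier description of these data, and not by the calls of the genes reported. The 100 versions called 219 to 1111 genes in all and 2 to 16 of the 29 glucose metabolism genes (median 11), against the 9 reported. Hk2 was called in 100 versions, Eno1, Pkm and Ldha in 98 each, Slc2a1 in 93, Pgk1 in 91, Aldoa and Gpi1 in 68 each and Tpi1 in 63. Among genes not called here, Pgm2 was called in 87, Ldhb in 74, Pgam1 in 60, Gapdh in 55, Pfkfb3 in 33, Pfkl in 23 and Slc2a3, as lower, in 12.

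The genes and the pathway, marker and motif lists were chosen with earlier results of these data known. Values per library are given for each called gene and for further genes named by rule, other members by day means, and from each pathway list up to 4 called genes with the smallest p, or 2 where none was called. Alternatives were another pseudocount, filter, scaling, weighting and model, counting day 7 replicates 1 and 2 singly, a replicate block and leaving out each library. Intervals and SEs cover the spread between libraries, and no interval for molecules can be given.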

Additional observations from a re-analysis of the deposited data

How the results depend on the processing

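Hk2, Eno1, Pkm and Ldha were called under all 15 alternatives, Slc2a1 under 14, Pgk1 under 13, Gpi1 and Aldoa under 12 and Tpi1 under 11. The 9 genes called in the set became 16 with 6 libraries counted singly, 5 with median-of-ratios scaling, 28 with T cell scaling, 18 with limma-voom on the recovered reads and 16 with the replicate block. They became 6 with the variance trend on RPKM (added after seeing the data): Slc2a1, Hk2, Eno1, Pkm, Ldha and Ldhb, the last not among the 9. With 1 library other than day 7 replicate 3 left out they became 9 to 11. The counts singly, with voom and with the block each include Slc2a3, called lower (-0.86, -0.98 and -0.86, adjusted p = 0.0225, 0.0304 and 0.0319). Calls over all genes, 548, became 1490 with the RPKM filter, 1011 without weights, 1690 singly, 6371 with T cell scaling, 2145 with voom, 1339 with the block and 327 with the trend on RPKM. With 1 library other than day 7 replicate 3 left out they became 517 to 570. The 9 calls in the other pathway lists became 22 singly, 57 with T cell scaling, 23 with voom and 15 with the block. Median-of-ratios scaling gave 6 calls there, a pseudocount of 0.1 and the trend on RPKM 7 each, and leaving out weights 13. The calls in these lists became 8 to 10 with day 7 replicate 1 or 2, or day 14 replicate 1 or 2, left out. Same-numbered libraries of the days did not deviate together (correlations -0.019, -0.013 and -0.036). Day 7 replicates 1 and 2 are nearly the same, so day 7 holds little more than their contrast with replicate 3. These correlations therefore cannot show whether the numbers pair libraries. Txnip was not called with the block (adjusted p = 0.0569). T cell scaling turned the sign of Slc2a3 (0.62), Hk3 (1.45), Pgm1 (1.66), G6pdx (1.44), Taldo1 (1.66), Rpia (0.88) and Txnip (0.78), and median-of-ratios scaling that of Pdha1 (-0.11). Pgm1, near 0, ranged from -0.20 to 0.0664 with 1 library left out. Leaving out day 7 replicate 3 left 1 day 7 sample, assumed to vary as day 7 does with all libraries. A call lost or gained there also reflects fewer samples. Counting singly and the block take the near-identical day 7 replicates 1 and 2 as separate samples, and T cell scaling called nearly every gene. The 15 alternatives are therefore not independent, and a tally over them does not measure support. The cause of the shifts between settings was not tested. With 2 day 7 samples, changes of low genes such as Pfkm, Aldoc and Slc16a1 carry SEs of about 0.6.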
